A study of Mus musculus with 6 samples.

Results

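Fos, Fosb, Fosl1, Fosl2, Jun, Junb and Jund are the 7 classical genes of activator protein 1 (AP-1), the transcription factor that FOS and JUN proteins form as pairs. They were taken by symbol from 52550 gene identifiers in RNA-seq libraries of newborn mouse cortex, and all 7 were found. Only 5 of them, Fos, Fosl2, Jun, Junb and Jund, held enough reads for a test between genotypes. The libraries were made from polyA RNA of C57BL6/J pups at P2, the second day after birth, each from 1 cortical hemisphere. The knockout group (n = 3) had the genotype Slc7a5fl/fl; Emx1Cre+ and the control group (n = 3) the genotype Slc7a5fl/fl; Emx1Cre-. Both groups therefore carry floxed alleles of Slc7a5, which encodes the light chain of the large neutral amino acid transporter LAT1. Cre is present in each knockout and absent from each control, so loss of the transporter and presence of Cre cannot be told apart. Emx1-driven Cre acts in dorsal forebrain progenitors, which give rise to excitatory neurons and glia, and spares microglia, vessels and most cortical interneurons. Each genotype has 1 library titled A, 1 titled B and 1 titled C.

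FOS and JUN proteins bind DNA as dimers held together by a leucine zipper. JUN proteins can pair with each other, while FOS proteins need a JUN partner. In neurons, Fos, Fosb and Junb are immediate early genes, transcribed within minutes of calcium entry or growth factor signals without new protein synthesis. Jund is known for steadier expression, and Fosl1 and Fosl2 encode the FOS-related proteins FRA-1 and FRA-2. Fos transcript is widely read as a mark of recent neuronal activity, and the series title names neuronal excitability. The comparison therefore asks whether AP-1 transcripts differ in cortex without the transporter.

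The upstream sequence of 4 members is shown because Fos, Fosb and Junb respond to signals through short elements near their start sites, and Jun is known for a site at which AP-1 itself acts. Each line is 100 bases on GRCm38.p6, 5′ to 3′ on the strand of the gene. For Jun, Junb and Fos they are the bases before the RefSeq start site. The Fosb line lies before its gene start in GENCODE M21, the annotation used here for coordinates. That start is 6 bases upstream of the RefSeq start. Capitals mark matches to 4 of the 6 motifs searched on both strands.

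Jun, chr4:95052223-95052322, minus strand: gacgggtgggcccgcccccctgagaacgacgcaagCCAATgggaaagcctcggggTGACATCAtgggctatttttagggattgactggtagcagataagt

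Junb, chr8:84978749-84978848, minus strand: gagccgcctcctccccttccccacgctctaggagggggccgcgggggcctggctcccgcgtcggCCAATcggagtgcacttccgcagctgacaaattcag

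Fos, chr12:85473790-85473889, plus strand: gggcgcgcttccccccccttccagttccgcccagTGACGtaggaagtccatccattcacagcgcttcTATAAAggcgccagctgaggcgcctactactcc

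Fosb, chr7:19310052-19310151, minus strand: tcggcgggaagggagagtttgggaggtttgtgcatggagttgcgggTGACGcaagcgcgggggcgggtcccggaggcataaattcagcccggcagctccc

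In the Fos sequence the capitals are TGACG, the core of the cyclic AMP response element, with its first base at position -66 from the start site, and the TATA sequence TATAAA at -33. A second TGACG of Fos at -129 lies beyond the printed bases. Fosb holds TGACG at -60 from its RefSeq start. Jun holds TGACATCA at -45, the variant known as the AP-1 site of its promoter, and CCAAT at -65. Junb holds CCAAT at -36 and, beyond the printed bases, TGACG at -106 and TATAAA at position 0, its RefSeq start. The GENCODE M21 start of Junb is 30 bases downstream of that RefSeq start. The Junb positions therefore depend on the start used. Neither TGACTCA, the consensus AP-1 site, nor TGACGTCA, the full cyclic AMP element, is spelled in the windows of 300 bases of the 6 members listed (250 before and 50 after the start). Of 32851 such windows in the promoter table, 20.8% hold TGACG, 3.62% TGACATCA, 13.6% TATAAA, 37.4% CCAAT, 5.20% TGACTCA and 1.79% TGACGTCA. TGACG lies within TGACGTCA, so those shares overlap. The listed start sites of Fosl2 and Jund are 671 and 1210 bases from their gene starts in GENCODE M21, and their upstream bases are not shown. A match describes the letters only, since no binding was measured.

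Per kilobase of annotated exon, Jun and Jund gave the highest levels of the family, as set out further below. In CPM (reads of a gene per 1000000 of the scaled library size, which compare 1 gene across libraries), Jun (chr4:95049034-95052222, a single-exon gene on the minus strand, GRCm38) stood at 52.5, 57.2 and 47.0 in the controls, and at 47.0, 46.9 and 50.7 CPM in the knockouts, each time in the order of the letters A, B, C. The knockouts lay within or just below the range of the controls, so the groups overlapped. Jund (chr8:70698949-70700616, plus strand, also a single exon) stood at 34.1, 44.7 and 34.2 CPM in the controls. Its knockout values were 34.3, 42.7 and 24.7 CPM. Knockout C had the lowest Jund level of all 6 libraries, while knockouts A and B lay inside the control range. Junb (chr8:84974484-84978718, minus strand, 1 exon in the longest of its 2 transcripts) stood at 13.3, 16.5 and 14.1 CPM in controls, and at 15.2, 10.1 and 11.0 CPM in knockouts. Knockouts B and C lay below every control for Junb, and knockout A lay between controls C and B.

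Fosl2 had the most reads of the FOS genes. Fosl2 (chr5:32135801-32157842, plus strand, 4 exons in its longest transcript) stood at 70.9, 51.8 and 55.0 CPM in controls and at 65.8, 41.9 and 56.3 CPM in knockouts. Library A was the highest of each genotype and library B the lowest. Fos (chr12:85473890-85477273, plus strand, 4 exons) stood at 2.82, 5.58 and 4.18 CPM in controls and at 1.75, 4.45 and 2.70 CPM in knockouts. These levels rest on 17 to 48 reads per library, 205 in all. Fos ran in the opposite order to Fosl2 across letters, lowest in A and highest in B in each genotype. Jund was also highest in B in each genotype.

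Fosb and Fosl1 were at or near the limit of detection. Fosb (chr7:19302696-19310051, minus strand, 4 exons) had 4, 8 and 4 reads in controls and 4, 1 and 4 in knockouts, or 0.403, 0.992 and 0.407 CPM against 0.412, 0.0927 and 0.416 CPM. Libraries A and C of both genotypes were alike, and control B and knockout B differed. The ratio of summed Fosb reads per scaled library size, knockout over control, was 0.519 with an exact 95% interval of 0.202 to 1.25, which covers counting error only. Fosl1 (chr19:5447547-5455946, plus strand) had 0 reads in all 6 libraries. A count of 0 allows up to 3 reads, which over all libraries is 0.0518 CPM.

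**Figure D1:**
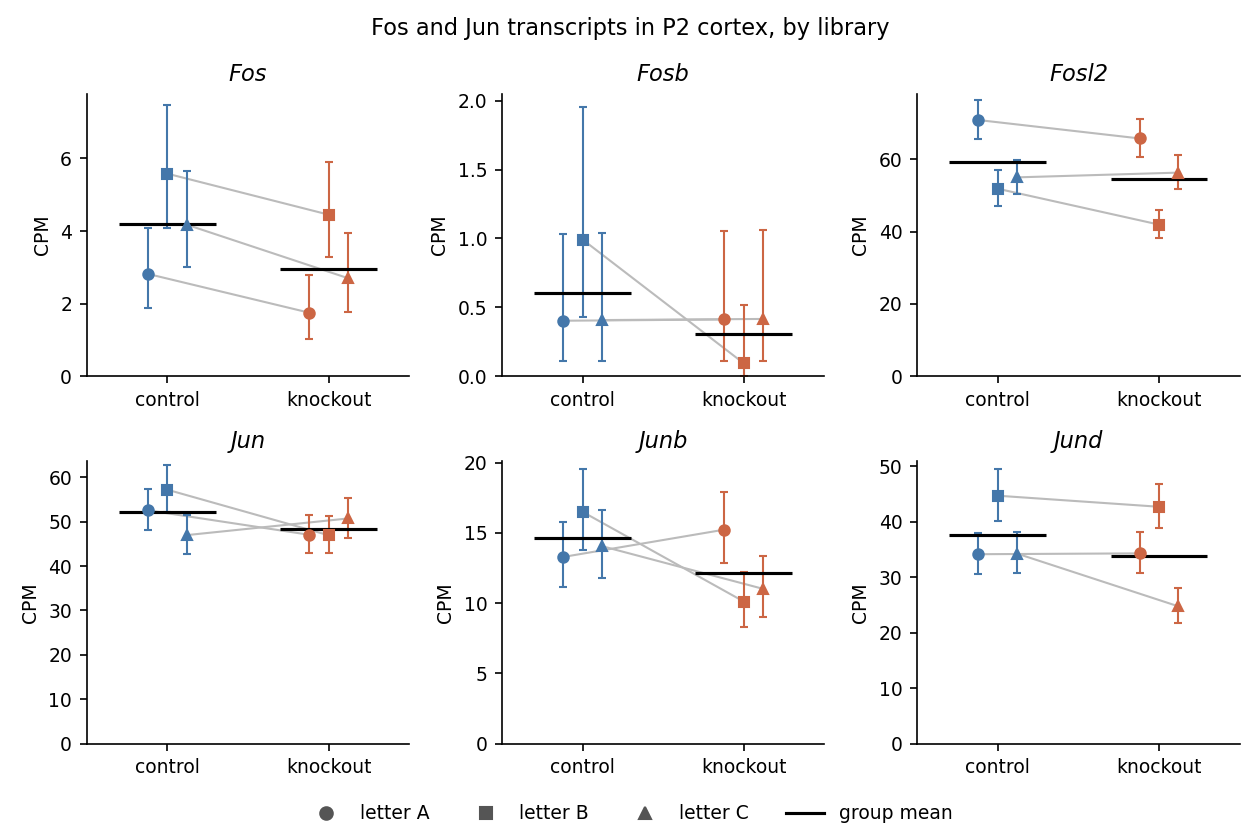
Level of 6 of the 7 AP-1 genes in each of the 6 libraries, in CPM. Points are libraries, and bars on points are exact 95% Poisson counting intervals. Black bars are group means and grey lines join libraries of the same letter. Controls and knockouts overlap in every panel. Fosl1, with 0 reads in all 6 libraries, is not drawn.

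Levels of different genes were compared only as CPM per kilobase of annotated exon. In controls Jund was highest at 22.6 ± 3.63 (SD, n = 3), followed by Jun at 16.4 ± 1.61, Junb at 6.35 ± 0.729, Fosl2 at 6.12 ± 1.05, Fos at 1.78 ± 0.588 and Fosb at 0.0962 ± 0.0543 CPM per kilobase. Junb and Fosl2, neighbours in that order, differed by less than either SD, and dividing by the longest transcript instead put Fosl2 above Junb (9.06 against 8.08). In the knockouts the means were 20.3 ± 5.38 for Jund, 15.1 ± 0.674 for Jun, 5.65 ± 1.24 for Fosl2, 5.27 ± 1.19 for Junb, 1.26 ± 0.583 for Fos and 0.0491 ± 0.0297 for Fosb. Apart from the change of place of Fosl2 and Junb, that is the order of the controls. In knockout C alone Jund, at 14.8 CPM per kilobase, lay below Jun, at 15.9. Among the 14913 genes tested, the control level per kilobase placed Jund at percentile 84.5, Jun at 79.0, Junb at 58.2, Fosl2 at 57.3 and Fos at 28.7.

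Summed by class, FOS transcripts were the smaller pool. The 4 FOS genes summed to 7.998 ± 0.538 CPM per kilobase in controls and 6.96 ± 0.686 in knockouts (SD, n = 3 each). The 3 JUN genes summed to 45.3 ± 5.72 and 40.7 ± 4.71. FOS transcripts were 15.1 ± 1.78% of the family in controls and 14.7 ± 2.21% in knockouts, a difference smaller than either SD. Fosl2 was 67.9 to 89.3% of the FOS pool in single libraries, and Jund was 41.7 to 57.2% of the JUN pool. These sums and shares depend on the length used. Divided by the longest transcript, control Fosl2 was 9.06 rather than 6.12 CPM per kilobase, and Junb 8.08 rather than 6.35. The ratio of Jun to Fos per kilobase ranged from 7.56 to 19.8 over the 6 libraries.

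**Figure D2:**
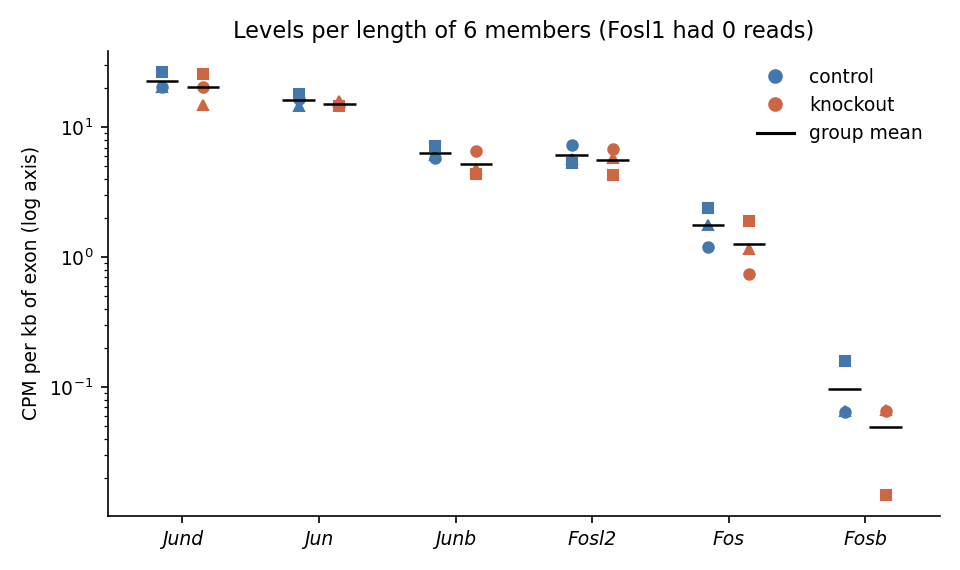
Level per kilobase of annotated exon (log axis) of the AP-1 genes with reads, by library and genotype; circles are libraries of letter A, squares B and triangles C, and black lines are group means. Jund and Jun are the highest, Junb and Fosl2 overlap, Fos is lower, and Fosb lies below 0.2 CPM per kilobase in every library.

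No AP-1 gene differed between genotypes by the test used. Knockout was compared with control by edgeR's quasi-likelihood F-test, two-sided, with Benjamini-Hochberg adjustment over 14913 genes and a threshold of 0.05. The letter was not part of this fit. Of the 5 tested members 0 were called, 0 had an unadjusted p under 0.05, and 0 had groups that did not overlap. With DESeq2 also 0 were called, but it gave no adjusted p for Fos, which it therefore could not call. Of all genes, 5 were called by edgeR, or 0.0335%, DESeq2 called 0.214% of the genes for which it gave an adjusted p, 1044 or 7% had an unadjusted p under 0.05, and 12.2% had groups that did not overlap. With the letter as a replicate block, 126 genes or 0.845% were called and again 0 of the 5 members. In bulk tissue, fewer cells of a type and less RNA per cell cannot be told apart.

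All 5 tested members had a lower fitted level in the knockouts, with a median log2 difference of -0.15 against 0.00113 over all genes, of which 49.8% had lower values. With both libraries of letter B left out, the members' median was -0.055. The members share the same 6 libraries, so they are not independent of each other. Fos had a log2 difference, knockout minus control, of -0.47 ± 0.34 (SE; edgeR adjusted p = 0.839). Its 95% interval ran from -56.6% to 19.6% around -28.0%. Fos was lower in the knockout of 3 of 3 letters, by log2 differences of -0.63, -0.31 and -0.59 in A, B and C, and paired by letter its value was -0.52 (edgeR adjusted p = 0.465). Of all genes, 16.8% were likewise lower in 3 of 3 letters. In the fit without the letter, the size for Fos turned on single libraries. It was -0.90 without knockout B, -0.21 without knockout A and -0.22 without control B. With both libraries of letter B left out it was -0.64.

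Junb had a log2 difference of -0.27 ± 0.18 (edgeR adjusted p = 0.824), with an interval from -36.3% to 8.11%. By letter, Junb was higher in knockout A, by 0.19, and lower in B and C, by -0.70 and -0.35. Without either library of letter B its difference was -0.055. Jun was the most narrowly bounded member, at -0.11 ± 0.11 (edgeR adjusted p = 0.885) with an interval from -21.8% to 9.12%. Jund stood at -0.15 ± 0.18 (edgeR adjusted p = 0.921; interval -31.2% to 18.6%), and without knockout C its sign turned, to 0.032. Fosl2 stood at -0.12 ± 0.16 (edgeR adjusted p = 0.929; interval -28.0% to 17.7%). Its sign turned without control A (0.030) and without knockout B (0.043). For Fosb, below the filter, the difference was -0.93 ± 0.78 by edgeR with no filter on low counts (edgeR adjusted p = 0.811). DESeq2 gave -0.97 ± 1.01 with no adjusted p.

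**Figure D3:**
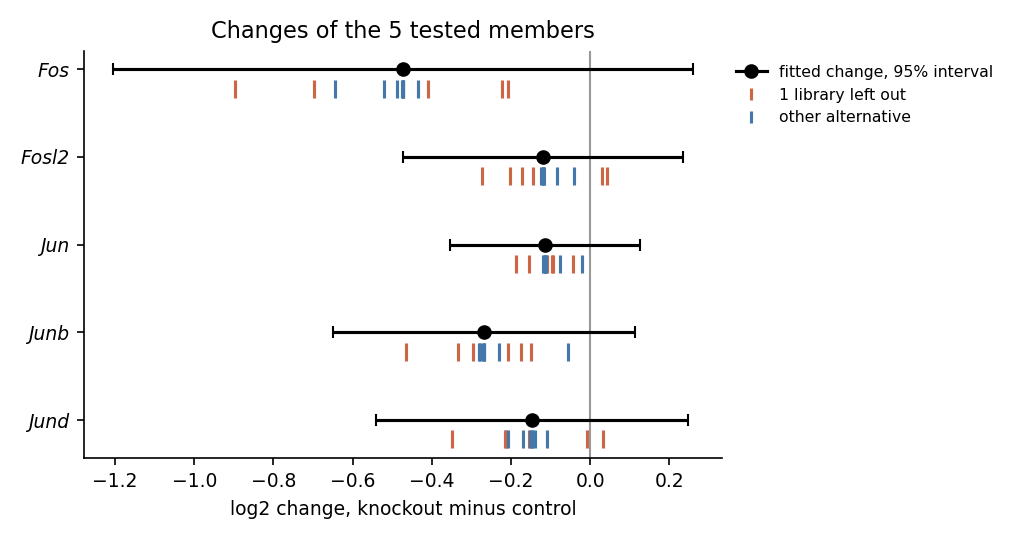
Log2 difference, knockout minus control, of the 5 tested AP-1 genes with 95% intervals from edgeR's group-only fit (black). Red ticks are the values with 1 library left out and blue ticks those of the other alternatives. Every interval includes 0, and Fos has the widest.

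The biological coefficient of variation that edgeR fitted, the spread between libraries beyond counting error, was 0.258 for Fos, 0.157 for Jund, 0.147 for Junb, 0.144 for Fosl2 and 0.104 for Jun. Fos had the fewest reads of these 5 and the widest interval, and Jun the narrowest. The SE of the Fos difference, 0.34, compares with a median of 0.155 over all genes tested.

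Junb lies against Prdx2, a peroxiredoxin gene on the opposite strand, with which it shares 351 bases of annotation. On the strand counted Junb had 766 reads, and on the opposite strand 3633 reads fell in its exons, or 82.6% of both. Those opposite reads stood at 21.8, 28.5 and 137 CPM in controls and 22.9, 79.8 and 79.1 CPM in knockouts, a different order from that of Junb. Jun overlaps the antisense transcript Junos by 689 bases, and Junos held 1.35 to 2.31 CPM. Opposite-strand reads were 0 for Fos and Fosb, 1 for Jun, 12 for Fosl1, 14 for Jund and 19 for Fosl2.

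The other bZIP genes, whose proteins can pair with FOS or JUN proteins, gave no call. Of 16 such genes, 11 were tested, of which 7 had higher and 4 lower values in knockouts, with a median log2 difference of 0.12, which was 0.043 without control C and 0.075 without knockout C. None of the 11 was called by edgeR with or without the letter or by DESeq2, and 0 had an unadjusted p under 0.05. Maf, a large MAF factor, stood at 0.18 ± 0.13. Nfe2l2, the oxidative stress factor NRF2, stood at 0.41 ± 0.31, Atf7 at 0.20 ± 0.17 and Atf2, which pairs with JUN at the Jun promoter, at 0.12 ± 0.10. Atf3, a partner induced by stress, was below the filter with 0.349 ± 0.374 CPM in controls and 0.139 ± 0.240 in knockouts.

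Kinases and factors that act on AP-1 promoters or proteins gave no call either. All 26 were tested, 7 with higher and 19 with lower values, with a median of -0.055 (-0.097 to -0.018 over the alternatives), and 0 were called by edgeR in either fit or by DESeq2. Mapk3, which encodes the kinase ERK1 that drives Fos transcription, had the smallest p at -0.32 ± 0.13 (edgeR adjusted p = 0.648, paired 0.122), the 1 gene of the list with an unadjusted p under 0.05. Mapk8, encoding the JUN kinase JNK1, stood at -0.14 ± 0.099, with controls at 221, 241 and 233 CPM and knockouts at 213, 199 and 217 CPM. It was 1 of 2 genes among the 26 whose groups did not overlap, against 12.2% of all genes. Map3k12, a kinase upstream of JNK in neurons, stood at -0.16 ± 0.11.

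Among 35 other immediate early genes, all tested, 26 had lower and 9 higher values in the knockouts, with a median of -0.18. That median was -0.084 without knockout A and -0.075 without control B. By the group-only edgeR fit 0 were called, by DESeq2 0, and 4 had an unadjusted p under 0.05, all lower: Ccn2, Egr4, Egr3 and Nr4a3. Paired by letter, 1 fell, Ccn1, which encodes a secreted matrix protein (log2 difference -0.95, edgeR adjusted p = 0.0106). Without the letter Ccn1 stood at -0.89 ± 0.49 (edgeR adjusted p = 0.796). Its levels were 6.84, 12.7 and 15.1 CPM in the controls against 2.68, 9.65 and 6.13 CPM in the knockouts, so the groups overlapped while each knockout lay below the control of its letter. Ccn2, a related matrix protein, stood at -0.35 ± 0.11 (edgeR adjusted p = 0.487, paired 0.0653). Groups did not overlap for 4 of the 35 genes, among them Ccn2, Egr3 and Nr4a3, against 12.2% of all genes. Egr4 and Egr3, zinc finger factors induced by neuronal activity, stood at -0.59 ± 0.24 and -0.46 ± 0.18 (edgeR adjusted p = 0.640 for both). Nr4a3, an orphan nuclear receptor, stood at -0.25 ± 0.11 (edgeR adjusted p = 0.708). For comparison, Fos and Junb had lower values of -0.47 and -0.27, also with no call.

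Genes known as AP-1 targets gave no call. Of 23, 15 were tested, 9 with higher and 6 with lower values and a median of 0.13, and 0 were called by edgeR in either fit or by DESeq2. The median was 0.034 to 0.080 with any 1 library left out and -0.015 with both libraries of letter B left out. Hmox1, encoding heme oxygenase 1, stood at 0.77 ± 0.26 (edgeR adjusted p = 0.526), the 1 target with an unadjusted p under 0.05. Spp1, encoding osteopontin, stood at 0.85 ± 0.44 (edgeR adjusted p = 0.766), the metallothionein Mt2 at 0.30 ± 0.30 and the matrix protease Mmp9 at 0.17 ± 0.19. The targets Mmp3, Il6 and Sprr1a had 0 reads in all 6 libraries.

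Heat shock genes were listed beside the AP-1 genes because they too are known to be induced by stress of cells and tissue. Of 15, 14 were tested, 6 with higher and 8 with lower values, with a median of -0.039 (-0.107 to -0.0027 over the alternatives) and 0 called by edgeR in either fit or by DESeq2. Hsph1, a co-chaperone of HSP70, had the smallest p at -0.30 ± 0.10 (edgeR adjusted p = 0.541), the 1 gene with an unadjusted p under 0.05. The chaperone genes Hsp90ab1, Hspa8 and Dnajb1 stood at -0.19 ± 0.11, -0.12 ± 0.098 and -0.12 ± 0.12.

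**Figure D4:**
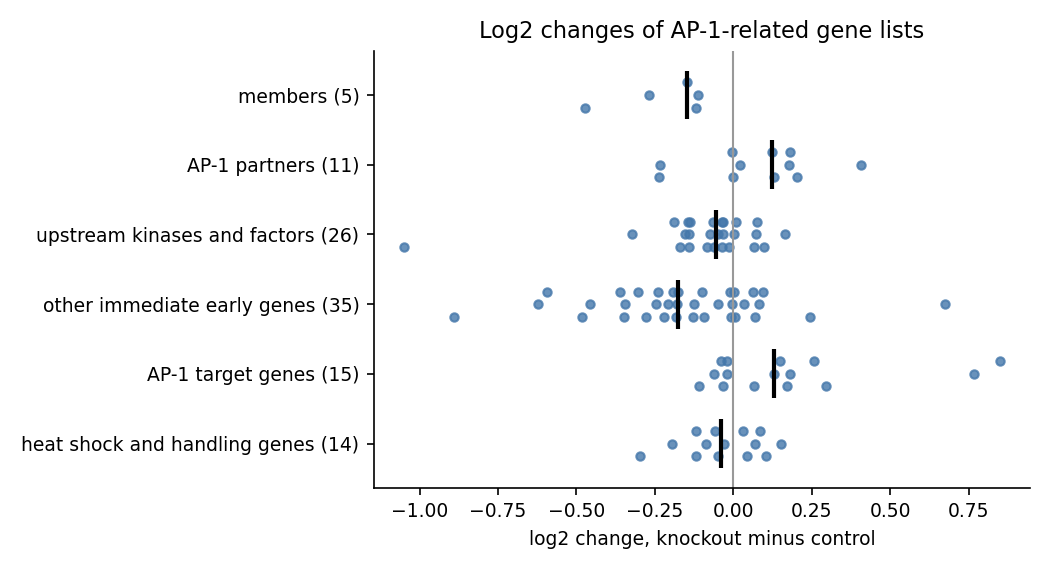
Log2 difference, knockout minus control, of each tested gene in the AP-1 members and 5 related lists, each point a gene and each bar the list's median. The medians lie between -0.18 (other immediate early genes) and 0.13 (AP-1 targets).

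By level across the 6 libraries, the genes nearest to each tested member of Fos, Jun, Junb and Jund were found as those with the smallest root mean square difference of centred log2 CPM. For Fos, whose own SD over the libraries was 0.569, they were Rgmb at 0.122, Snrpf at 0.131 and Kcnj2 at 0.153. For Jun (SD 0.116) they included Trpm3 at 0.028 and Gfod1 at 0.035, and for Junb (SD 0.268) Naa20 at 0.054, Mc4r at 0.060 and Ap4b1 at 0.069. For Jund (SD 0.301) they were Idh3g at 0.055, Marcksl1 at 0.058 and Fam92a at 0.060. By Spearman's rho the nearest genes could not be told apart, since 35 genes tied at the highest value for Fos, 34 for Junb, 28 for Jund and 4 for Jun.

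The labels and tissue were checked as follows. Slc7a5 stood at 20.2, 40.7 and 26.1 CPM in controls and at 15.6, 9.37 and 11.4 CPM in knockouts, lower in every knockout than in any control (log2 difference -1.25 ± 0.28; edgeR adjusted p = 0.400, DESeq2 4.17e-04). Its reads include cells that Cre does not reach, and the floxed exons are not named in the labels. Markers of excitatory neurons summed to 2749 to 3069 CPM in controls and 2650 to 3006 in knockouts. Interneuron markers summed to 692 to 755 and 833 to 923 CPM, and radial glia and progenitor markers to 318 to 361 and 368 to 398. Oligodendrocyte lineage markers summed to 211 to 254 and 190 to 205 CPM, and neutrophil markers to 3.62 to 4.96 and 6.21 to 13.3. In the interneuron, progenitor, oligodendrocyte lineage and neutrophil lists the groups did not overlap, out of 13 marker lists. Microglial markers summed to 104 to 134 and 121 to 166 CPM. Sums for astrocytes were 433 to 530 and 443 to 517 CPM, and for endothelium 87.8 to 120 and 89.35 to 128. For red cells they were 387 to 545 and 398 to 479 CPM, and for striatum 219 to 274 and 207 to 262. Mural sums nearly touched, at 92.48 to 101.8 and 101.8 to 131 CPM. Choroid plexus markers reached 150 CPM in control B, where Fos was also highest. Of these markers, Ttr stood at 4.27 CPM in knockout B, where Fos was 4.45 CPM. In knockout C Ttr stood at 27.2 CPM and Fos at 2.70 CPM. Fibroblast markers ranged from 7.45 to 86.1 CPM. Gene counts per library were 8249436 to 10372582. Reads in no exon on the strand counted, which include reads opposite an exon, were 22.5 to 26.5% of uniquely mapped reads in controls. In knockouts they were 27.4 to 27.9%. The part of these differences in the AP-1 values was not tested.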

How the data were processed

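The deposited tables hold raw counts of reads per gene from the authors' STAR gene counting, not normalised. Per the submitters' processing notes, the aligner was STAR 2.5.4 and the builds named are GRCm38 and mm10. No annotation release is given in the sources used here. The 3 samples per genotype are biological replicates, per the series' design. Summary lines were left out, and the multi-mapping line was 0, so reads shared between near-identical copies were not counted. The strand column with more reads (18.6 times the other) was used. Symbols, coordinates and exon lengths came from GENCODE M21 (52403 of 52550 identifiers), and promoter sequences from RefSeq.

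Genes were kept by filterByExpr (14913), libraries scaled by TMM (factors 0.979 to 1.04), and genotypes compared in R 4.3.3 with edgeR 4.0.16 (robust quasi-likelihood), on all 6 libraries. CPM uses the scaled library sizes. The SE is the log2 difference divided by the square root of F. DESeq2 1.42.0, upper-quartile factors, no low-count filter, unstranded counts, a non-robust fit, the letter as a block and leaving out libraries were alternatives. Deviations from group means correlated across genes at 0.417, 0.342 and 0.211 between libraries of the same letter (A, B, C). Without genes of X and Y these were 0.393, 0.242 and 0.182. Between different letters they were at most -0.0310, or 0.036 without X and Y. Deviations within a group cancel out, so low values between different letters are not separate evidence. From the same-letter values, the letter was taken to pair control and knockout, but only in an alternative fit. The main fit left the letter out. What a letter marks is not in the labels. Both libraries of letter B held Xist, at 918 and 961 CPM, and the others at most 2.95. No libraries of a group agreed within sampling noise, so none was treated as a duplicate.

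The members and lists were chosen with earlier results of these data known. Named were all members, Slc7a5, any list gene past the threshold in either fit, then list genes by p until 4 were named, and the 3 genes nearest by pattern among protein-coding genes of at least 5 CPM, named only where the symbol is not a predicted gene. Atf3, Mmp3, Il6, Sprr1a, Junos and Prdx2 were named after their values were seen. Some genes that the rule names are left out here.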

Additional observations from a re-analysis of the deposited data

How the results depend on the processing

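None of the 5 tested members was called under any of 13 alternatives, with adjusted p from 0.465 to 1; DESeq2 gave no adjusted p for Fos. Fos, Jun and Junb kept a lower value in 13 of 13, at -0.90 to -0.21, -0.19 to -0.021 and -0.47 to -0.055. Leaving out single libraries, Fosl2 ranged from -0.27 to 0.043 and Jund from -0.35 to 0.032; the cause was not tested. The count of all genes called was 5, and it was 24 with DESeq2, 9 with upper-quartile factors, 71 with no low-count filter, 2 without the robust option, and 1 to 9 without single libraries. The replicate block, the pairing by letter, gave 126 and changed no call among the members. Its log2 differences (± SE) were -0.52 ± 0.28 for Fos, -0.28 ± 0.17 for Junb and -0.11 ± 0.11 for Jun. For Jund and Fosl2 they were -0.17 ± 0.12 and -0.12 ± 0.10. Leaving out both libraries of letter B, an alternative chosen after seeing the data, gave 2. Divided by the longest transcript, control levels were 0.159 for Fosb, 9.06 for Fosl2 and 8.08 for Junb CPM per kilobase. Fosb had 1 to 8 reads per library, which limits the precision of its values.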

Other observations

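Prdx2, the gene on the strand opposite Junb, stood at 323, 362 and 1054 CPM in the controls and at 323, 654 and 680 CPM in the knockouts, in the order of the letters A, B, C. Both libraries of letter A were lowest, and the groups overlapped.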
